A study of Mus musculus with 764 samples.

Results

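The 31 genes described here code for the enzymes that turn glucose into lactate, the transporters that bring in glucose, amino acids and inositol and let lactate out, the oxygen sensing system with some of its target genes, and Myc. They were taken as a list of gene names, chosen with earlier results of these data known, and all 31 were found among 23993 gene rows. They were measured by SMART-seq2, a full-length single-cell RNA-seq method, in 764 IL-10-producing CD4+ T cells of mice, 190 from the small intestine (SI) and the others from the spleen. The cells had been sorted on eGFP, which reports IL-10, from mice that also carry an mRFP reporter of Foxp3. Both tissues are labelled as treated with anti-CD3, an antibody that activates T cells through their receptor, and untreated cells were not analysed here. The labels give no strain, age or animal.

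The wells fell into 4 sets by the code (p1 or p2) and the column in their labels. The codes were read as plates, which the labels do not state. All SI cells were in columns 13-24 of plate p2. The spleen cells filled plate p1, columns 1-12 and 13-24, and columns 1-12 of plate p2, and these 3 spleen sets served as the measure of spread. Because each tissue is 1 sample without named animals, tissue, animal and place on the plate cannot be told apart, no p-value was computed, and cells were not taken as replicates. Each set held at least 190 cells. After filters on reads and genes, and without cells called S or G2M, 72.1% of the SI cells and 69.3%, 76.8% and 63.5% of the cells of the spleen sets were left. All tissue values are from these cells, called G1, unless stated. Median depth of the G1 cells was 324546 reads in the SI and between 315656 and 366071 in the spleen sets, and the medians of genes detected per cell were 3105 in the SI and 3262 to 3331 in the spleen.

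Cd3e and Cd4 had a read in 100% of G1 cells of every set, as did Cd3d in the 3 spleen sets and in 98.5% in the SI. Markers of other cells differed between the sets. Of the CD8 T cell markers, Cd8a averaged 489.5 reads per 1000000 reads of a cell (CPM) in the SI, with a read in 28.5% of cells, and both markers summed to 17.2 to 80.2 CPM in the spleen sets. Cd8b1 averaged 38.4 CPM in the SI, within the spleen range. The regulatory T cell list (Foxp3, Il2ra and Ikzf2) summed to 192.2 CPM in the SI and to 335.1, 668 and 1200 CPM in spleen p2, p1 columns 13-24 and p1 columns 1-12, with all 3 genes found in every set. Myeloid markers summed to 105.4 CPM in the SI, nearly all of it Cd68 with Lyz2 at 0, and to 39.96 to 41.2 CPM in the spleen sets. The epithelial list summed to 19.7 CPM in the SI, within the spleen range of 15.5 to 69.98 CPM. The cycling list (Mki67, Top2a, Cdk1 and Ccnb1) summed to 111.5 CPM in the SI and to 170.1, 248.2 and 180.8 CPM in p1 columns 1-12, p1 columns 13-24 and p2, below every spleen set in the SI.

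Glycolysis breaks glucose down in the cytosol, and activated T cells raise it together with lactate release and amino acid uptake to feed growth and division. HIF-1, whose alpha subunit is coded by Hif1a, is broken down when oxygen is present through the prolyl hydroxylases coded by Egln1 and Egln3, and when it builds up it switches on glycolytic genes and Pdk1, Bnip3, P4ha1 and Vegfa. Myc also drives glucose and amino acid metabolism in activated T cells, and HIF-1 and Myc bind short DNA motifs that share the letters CGTG.

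The promoters of 4 of the 5 genes with the lowest SI to spleen ratios are shown because these genes were low in the SI together. They run from 250 bases before to 50 bases from the transcription start, are from RefSeq on GRCm38.p6, and are written 5′ to 3′ on the gene's strand with each hypoxia response core (ACGTG or GCGTG on either strand) in capitals. The windows are chr2:71872974-71873273 (plus strand) for Pdk1, the first of its 2 listed starts, chr10:78009758-78010057 (minus strand) for Pfkl, chr3:104638414-104638713 (plus strand) for Slc16a1 and chr10:59323046-59323345 (plus strand) for P4ha1. Slc16a1 and P4ha1 were added after their values were seen, and Slc7a5 had no entry.
Pdk1: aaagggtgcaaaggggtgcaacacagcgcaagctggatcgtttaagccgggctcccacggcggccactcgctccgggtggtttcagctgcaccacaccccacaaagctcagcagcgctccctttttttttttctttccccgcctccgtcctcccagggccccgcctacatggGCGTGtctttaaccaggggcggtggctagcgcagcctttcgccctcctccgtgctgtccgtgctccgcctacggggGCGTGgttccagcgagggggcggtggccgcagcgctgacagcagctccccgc
Pfkl: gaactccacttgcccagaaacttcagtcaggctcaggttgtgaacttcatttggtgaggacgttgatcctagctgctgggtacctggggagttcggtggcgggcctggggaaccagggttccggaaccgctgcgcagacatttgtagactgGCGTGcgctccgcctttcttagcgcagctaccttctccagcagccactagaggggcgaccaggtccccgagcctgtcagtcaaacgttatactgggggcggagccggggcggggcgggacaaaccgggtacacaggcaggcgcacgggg
Slc16a1: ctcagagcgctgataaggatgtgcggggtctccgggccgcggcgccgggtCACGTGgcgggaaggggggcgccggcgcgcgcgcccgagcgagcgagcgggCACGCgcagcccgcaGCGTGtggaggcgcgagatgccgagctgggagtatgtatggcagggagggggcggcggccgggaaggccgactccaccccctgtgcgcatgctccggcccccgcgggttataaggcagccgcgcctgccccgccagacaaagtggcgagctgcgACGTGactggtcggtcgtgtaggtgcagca
P4ha1: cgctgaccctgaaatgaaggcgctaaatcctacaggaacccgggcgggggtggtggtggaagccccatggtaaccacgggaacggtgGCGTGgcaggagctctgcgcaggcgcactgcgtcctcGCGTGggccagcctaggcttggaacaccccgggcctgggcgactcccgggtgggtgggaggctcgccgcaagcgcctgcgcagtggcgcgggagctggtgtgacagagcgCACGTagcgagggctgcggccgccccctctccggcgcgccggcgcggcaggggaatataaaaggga
The core matched 2 times in Pdk1, 1 time in Pfkl, 5 times in Slc16a1 and 3 times in P4ha1, counting overlaps. The E-box CACGTG, which overlaps the core, was present in the Slc16a1 window and in none of the other 3.

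Of the 31 members, 27 had a promoter window and 25 of these held the core in at least 1 window, against 46.7% of 27025 genes. The members' windows were richer in G and C, with a median of 65% over 37 windows against 52.7% over all 32851. Among all windows with 57.3% to 69% G and C, the middle range of the members, 64.4% held the core, and so did 16 of the 20 member windows in that range. CACGTG was in 5 of the 27 members (18.5%) and in 8.09% of all genes. These matches describe the letters of a 300-base window and no binding was measured.

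Between the tissues most members were lower in the SI. By mean CPM, 22 of the 31 were lower in the SI than in all 3 spleen sets, against 44.7% of the 8819 genes that averaged at least 10 CPM in either tissue. Only 3 were higher than all 3 sets, Hk2, Slc3a2 and Slc38a2, against 25.3% of genes, and the SI mean of the other 6 did not lie outside all 3 sets. At 2-fold or more against each spleen set, 11 members were lower, where 10.7% of all genes were, and none was higher, where 5.44% of all genes were. The median log2 ratio of SI over spleen, on means with 1 CPM added, was -0.77 over the members and -0.22 over all genes tested. Of the 31, 27 averaged at least 10 CPM in a tissue, and the 4 below that, Pgam1, Eno1, Vegfa and Bnip3, rest on few reads. The 22 lower members include Pgam1, Eno1 and Bnip3, and the 11 that were 2-fold lower include Pgam1 and Bnip3. Genes this low were left out of the shares of all genes. The all-gene ratio of -0.22 came to -0.02 with TMM scaling and 0.01 with DESeq2 size factors. With those scalings 35% and 33.9% of all genes were lower and 35.1% and 36.2% higher in the SI than in every spleen set, the same 22 members remained lower, and Slc2a3, Hk1 and Hif1a came to lie above all 3 spleen sets, with Egln1 under the second. A lower mean in these cells cannot separate fewer cells with the transcript from less transcript per cell, so the share of cells with a read is given beside the means.

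**Figure D1:**
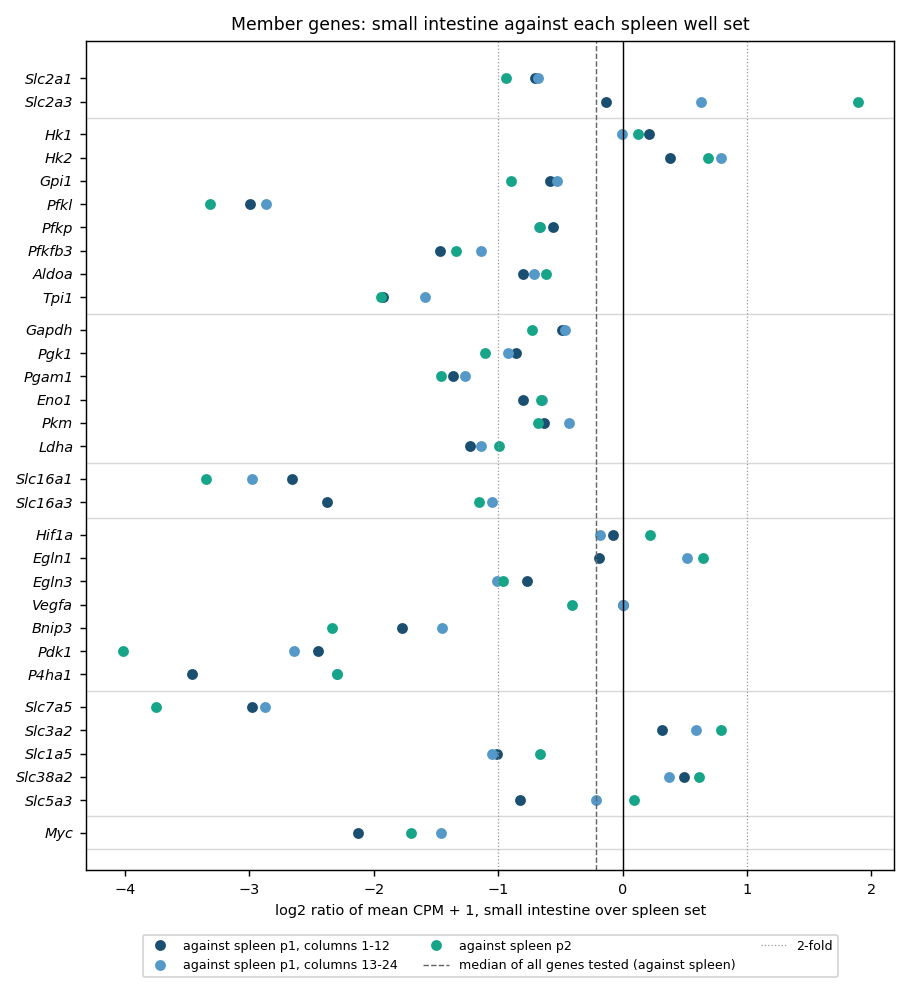
The log2 ratio of mean CPM + 1 in the SI over each of the 3 spleen well sets (horizontal axis) for the 31 genes, in blocks from glucose transport at the top to Myc at the bottom, with 1 dot for each spleen set. Hk2, Slc3a2 and Slc38a2 lie to the right of 0 against all 3 sets and 22 genes lie to the left, 11 of them past the 2-fold line at -1 against each set. Vegfa is at 0 against sets without a read.

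The 2 glucose transporters differed in how they stood to the spleen. Slc2a1 (GLUT1) averaged 47.6 CPM in the SI and 77.97, 77.04 and 92.3 CPM in spleen p1 columns 1-12, p1 columns 13-24 and p2, in that order as in all that follows. Slc2a3 (GLUT3, the transporter of higher glucose affinity) averaged 80.6 CPM in the SI against 88.2, 51.7 and 21.01 CPM. The SI was thus below every spleen set for Slc2a1, with reads in 23.4% of cells against 34.6 to 39.3%, while for Slc2a3 it lay inside a spleen range of 2.02 on the log2 scale. Per kilobase of exon, Slc2a3 made up 58.2% of the summed level of both transporters in the SI and 48.2, 35.6 and 15.8% in the spleen sets. In 53.3% of SI cells and 48.9 to 52.1% of spleen cells neither had a read.

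Among the first steps of glycolysis, 6 of 8 genes were lower in the SI. Hk1 and Hk2 code for hexokinases, which trap glucose in the cell. Hk1 averaged 175.5 CPM in the SI against 151.2, 176.4 and 160.7 CPM and did not leave the spleen range. Hk2 averaged 46.3 CPM against 35.3, 26.4 and 28.3 CPM, with reads in 35% of SI cells and 21.9 to 27.9% of spleen cells, and was the member with the largest ratio above 0 among those outside the spleen range (log2 ratio 0.61 against all spleen cells). Gpi1, the isomerase that follows, averaged 256.8 CPM against 385.6, 369.8 and 478.7 CPM.

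Phosphofructokinase, which commits sugar to glycolysis, showed the largest difference in log2 ratio among the 5 pairs of related members compared (Slc2a1 and Slc2a3, Hk1 and Hk2, Pfkl and Pfkp, Slc16a1 and Slc16a3, Egln1 and Egln3). Pfkl averaged 11.3 CPM in the SI and 97.2, 88.7 and 121.9 CPM in the spleen sets, a log2 ratio of -3.06 against all spleen cells. It had a read in 15 SI cells (10.9%, 95% exact binomial interval 6.26 to 17.4) and in 45.9% of spleen cells (40.9 to 50.9). These intervals cover the sampling of cells only. Pfkp, coding for the platelet-type subunit, averaged 208.6 CPM against 307.6, 332.9 and 330.8 CPM, a log2 ratio of -0.63. The SI was below all spleen sets for both genes, and Pfkp took 94.1% of their summed CPM per kilobase in the SI and 73.3, 76.5 and 70.2% in the spleen sets. Pfkfb3, whose product makes the activator of phosphofructokinase, averaged 21.97 CPM against 62.5, 49.5 and 57.2 CPM.

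Aldoa (aldolase) averaged 480.6 CPM in the SI against 840, 788 and 736.5 CPM. For Tpi1, triosephosphate isomerase, the means were 75.7 CPM in the SI and 290.1, 229.9 and 294.4 CPM in the spleen sets, with a read in 44.5% of SI cells and 66.4 to 80.5% of spleen cells. Both were below the spleen sets without overlap of the set means, and Tpi1 was more than 2-fold below each.

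All 6 genes of the later steps were lower in the SI than in every spleen set. Ldha, the lactate dehydrogenase subunit that turns pyruvate into lactate, had the highest level per kilobase of all 31 genes in every set, at 436.4 CPM per kilobase in the SI and 1024, 962 and 869 in the spleen sets. Over cells its lowest, median and highest values were 2.70, 679 and 3579 CPM in the SI and 0, 1726 and 5661 CPM in the spleen. Nearly every cell had an Ldha read, so this gene differed in level rather than in the share of cells, with a log2 ratio of -1.13 against all spleen cells and -0.99 against spleen p2. Pkm (pyruvate kinase) averaged 449.9 CPM against 696, 605 and 719.5 CPM. Gapdh averaged 38.1 CPM against 53.6, 52.8 and 63.7 CPM although it had a read in 100% of SI cells, and Pgk1 averaged 9.37 CPM against 17.8, 18.6 and 21.3 CPM. Pgam1 and Eno1 stayed under 4 CPM in every set. The levels of Gapdh, Pgk1, Pgam1 and Eno1 are uncertain, since these genes have processed copies in the genome and reads that fit several places may not have been counted; the same limit applies in part to Aldoa, Tpi1, Pkm and Ldha.

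Both transporters of lactate and pyruvate were more than 2-fold lower in the SI than in each spleen set. Slc16a1 (MCT1) averaged 9.28 CPM against 63.9, 80.1 and 103.8 CPM. It had a read in 10 SI cells (7.30%, 95% exact limits of 3.56 and 13) and in 30.7% of spleen cells (26.2 and 35.4). Slc16a3 (MCT4, the carrier suited to lactate export) averaged 10.9 CPM against 60.7, 23.7 and 25.5 CPM. Slc16a3 varied among the spleen sets by 1.32 on the log2 scale, and its ratio was -2.37 against p1 columns 1-12 but -1.05 and -1.16 against the other 2. Slc16a3 was no longer 2-fold lower than each set with TMM or DESeq2 scaling, with a pseudocount of 10 CPM, or without cells with a Cd8a or Cd8b1 read or with a Foxp3 read, and in the last case its ratio against all spleen cells was -0.93 in place of -1.66. No read of either gene was found in 81.8% of SI cells and in 52.6 to 55.5% of cells of the spleen sets.

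**Figure D2:**
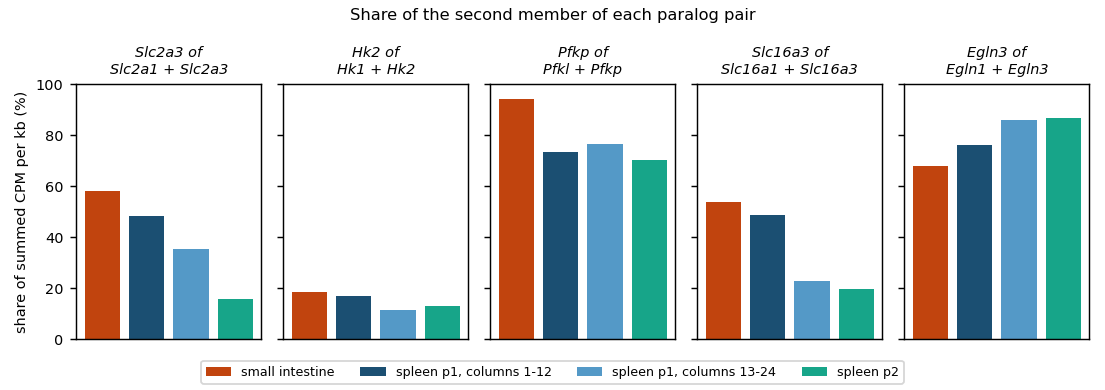
Bars give, for 5 pairs of related genes, the share in percent of the pair's summed CPM per kilobase of exon taken by the second gene, in the SI and the 3 spleen sets. Pfkp took 94.1% in the SI and 70.2 to 76.5% in the spleen sets, while Slc2a3 and Slc16a3 varied among the spleen sets from 15.8 to 48.2% and from 19.6 to 48.6%.

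In the oxygen sensing group, 4 of 7 genes were below all 3 spleen sets and the other 3, Hif1a, Egln1 and Vegfa, were not. Hif1a averaged 1123 CPM in the SI and 1182, 1273 and 962 CPM in the spleen sets, so the SI mean lay among them. Its lowest, median and highest values over cells were 0, 832 and 6198 CPM in the SI and 0, 869 and 6420 CPM in the spleen. Egln1 averaged 33.3 CPM in the SI against 38.02, 22.9 and 20.9 CPM, again within the spleen range. Egln3, itself a HIF-1 target, averaged 52.2 CPM against 89.4, 105.9 and 102.5 CPM and was below all 3.

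Within this group, the HIF-1 target genes Pdk1, P4ha1 and Bnip3 were at least 2-fold lower in the SI than in each spleen set. Genes tied to hypoxia did not all go this way. Ndrg1, a hypoxia responsive gene outside the list, averaged 125.4 CPM in the SI and 8.57 CPM in the spleen, while Ddit4 averaged 16.6 and 41.4 CPM. Hk2, a glycolytic member, was above all 3 spleen sets. Pdk1, the kinase that holds pyruvate back from the mitochondria, averaged 9.66 CPM in the SI and 57.2, 65.4 and 171.7 CPM in the spleen sets. It had a read in 10 SI cells (7.30%) and in 24.8, 26 and 50.8% of spleen cells. Spleen p2, which shares its plate code with the SI, was the set farthest from the SI (log2 ratio -4.02, against -2.45 and -2.64). P4ha1, a collagen prolyl hydroxylase subunit, averaged 7.40 CPM against 91.5, 40.3 and 40.2 CPM and had a read in 8.03% of SI cells and 19.9 to 42.9% of spleen cells. Bnip3, a mitophagy gene, had a read in 1 SI cell (0.730%, limits of 0.0185 and 4) and in 23 spleen cells (5.74%, 3.67 and 8.48). Its 2-fold call was lost with no cell removed and with a pseudocount of 10 CPM, and its log2 ratio of -1.88 ranged from -4.04 to -0.37 (pseudocounts of 0.1 and 10 CPM) over the settings tried. Vegfa had no read in the SI, where a floor of 3 cells would be 2.19% and the exact upper limit was 2.66% of cells with a read, and was read in 1 spleen cell.

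The amino acid carriers did not move as 1 block. Slc7a5 and Slc3a2 code for the light and the heavy chain of the LAT1 transporter, which brings in leucine and other large neutral amino acids. Slc7a5 averaged 3.76 CPM in the SI and 36.6, 33.9 and 63.1 CPM in the spleen sets, a log2 ratio of -3.23 against all spleen cells, the lowest of all members. With cycling cells kept it was -2.34, with no cell removed -2.17 and with a pseudocount of 10 CPM -1.96, and Pdk1 was then lower. It had a read in 8 SI cells (5.84%, limits of 2.55 and 11.2) and in 99 spleen cells (24.7%, 20.5 and 29.2). Slc3a2 averaged 405.5 CPM in the SI against 325.3, 268.5 and 233.6 CPM, with reads in 85.4% of SI cells and 71.3 to 81.2% of spleen cells. The partner chains thus lay on opposite sides of the spleen sets.

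Slc1a5 (ASCT2, a glutamine carrier) averaged 712, 732.1 and 561.2 CPM in the spleen sets, and the SI stood below them by log2 ratios of -1.01, -1.05 and -0.66. Slc38a2 (SNAT2, a carrier of small neutral amino acids) averaged 163.2 CPM against 115.7 CPM in p1 columns 1-12 and 106.2 CPM in p2, and was above p1 columns 13-24 too by a log2 ratio of 0.37. Slc5a3, a carrier of myo-inositol, averaged 37.2 CPM against 66.5, 43.2 and 34.8 CPM, within the spleen range. Hk2, Slc3a2 and Slc38a2 stayed above all 3 spleen sets under each of the 9 other settings tried for the gene lists. The pseudocounts among these settings could not change this call, which compares mean CPM without a pseudocount.

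Myc averaged 49.4 CPM in the SI and 218.4, 137.9 and 163.1 CPM in the spleen sets. It had a read in 37 SI cells (27%, limits of 19.8 and 35.3), where it reached 1249 CPM, and in 44.4% of spleen cells (39.5 and 49.4), where it reached 3362 CPM. By spleen set the share was 54.9, 44.5 and 32.8%, and the value of p2 lies inside the SI limits. In mean log2(CPM + 1) of Myc the SI differed from p2 by -0.73, less than the range of 1.54 among the spleen sets. The log2 ratio was -1.78 against all spleen cells and between -2.12 and -1.46 against the sets.

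The mean of log2(CPM + 1) over the 31 genes, here called the module, was 3.01 ± 0.626 (SD over cells) in the SI and 3.95 ± 0.877, 3.73 ± 0.812 and 3.80 ± 1.06 in the spleen sets. The SI minus spleen difference was -0.81 (-0.50 with a pseudocount of 10 CPM, -1.82 with the median over members), against a range of 0.22 among the spleen sets, and 91.2% of SI cells lay below the spleen median. For the median gene of all those tested the same difference was -0.17. SI cells had a read of 13.04 ± 2.68 members on average and spleen cells of 16.2 ± 3.63. By group, Myc alone differed most (-1.51), by less than its range of 1.54 among the spleen sets. Lactate and pyruvate transport (-1.22), the first steps (-1.12) and the later steps (-0.86) differed more than oxygen sensing and hypoxia (-0.62). Amino acid and inositol transport differed by -0.50, but from spleen p2 by only -0.28, less than its range of 0.39 among the spleen sets. Glucose transport differed by -0.09, less than its range of 0.35. The SD of the module over SI cells, 0.626, was below that of each spleen set. By group this did not hold for the first steps, at 1.39 in the SI against 1.33 in p1 columns 13-24. Nor did it hold for the later steps, at 0.778 in the SI against 0.768 in p1 columns 1-12. In the other groups the SI had the lowest SD. These SDs were not adjusted for the lower level in the SI. Relative to the mean, the SD of CPM of single genes went both ways. It was 0.732 in the SI against 0.509, 0.529 and 0.686 for Ldha, and 1.09 against 1.22, 1.22 and 1.2 for Slc3a2.

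**Figure D3:**
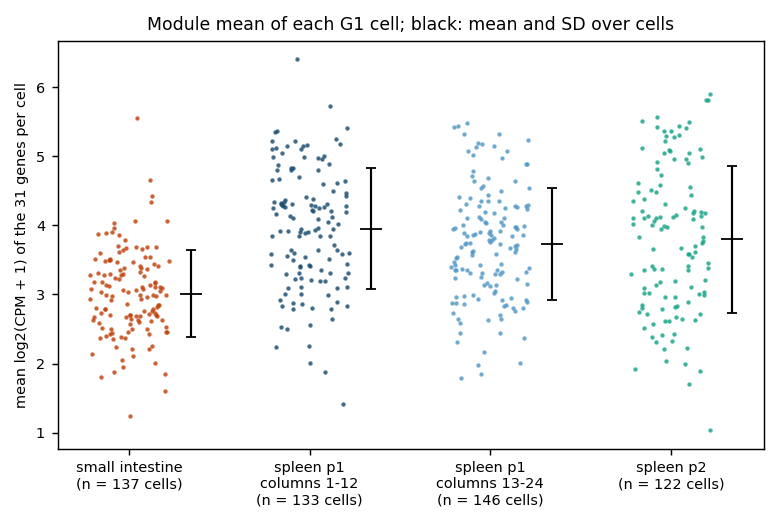
Each dot is the module, the mean log2(CPM + 1) of the 31 genes, of 1 G1 cell in the SI and the 3 spleen sets, and black marks give the mean and the SD over cells. The SI cells center on 3.01, and the spleen sets on 3.95, 3.73 and 3.80 with a larger SD on this scale.

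The tissue difference was measured within classes of cells that differed in number between the sets. Without an Mki67 read, the proliferation gene, it was -0.78 (89 SI cells), and with one it was -0.82 (48 SI cells). Among S and G2M cells it was -0.52 (34 SI cells), with 22 members below and 2, Hk2 and Slc38a2, above all 3 spleen sets. These 22 were not all the same genes, since Pkm and Egln3 were no longer below every set while Hk1 and Egln1 were, and Slc3a2 was no longer above. Leaving out cells with a Foxp3 read gave -0.72, leaving out those with a Cd8a or Cd8b1 read gave -0.75 with 95 SI cells, and leaving out those with a Cd68 read gave -0.83. In the first 2 of these the same 22 members were below all 3 spleen sets, and for the last the members were not counted. These last 2 choices were made after seeing the data. Within these classes neither the share of all genes below or above the spleen sets nor the difference of the median gene was computed. The counts and differences by class are therefore not set against all genes.

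The module moved closely with the number of genes with a read in a cell, which is lower in the SI. Their Spearman correlation across cells was 0.637 in the SI and 0.55, 0.65 and 0.773 in the spleen sets (over all G1 cells of a set, which share plate and tissue), while with reads per cell it was between -0.132 and 0.169. In tertiles of all G1 cells by genes with a read, the SI minus spleen difference was -0.44 in the lowest tertile, -0.66 in the middle and -0.75 in the highest, with 59, 53 and 25 SI cells. Against spleen p2 alone it was -0.23, -0.70 and -0.97, and the first of these is close to the range of 0.22 among the spleen sets. The mean of the 3 was -0.62. The part of gene number in the tissue difference was not tested beyond these tertiles.

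**Figure D4:**
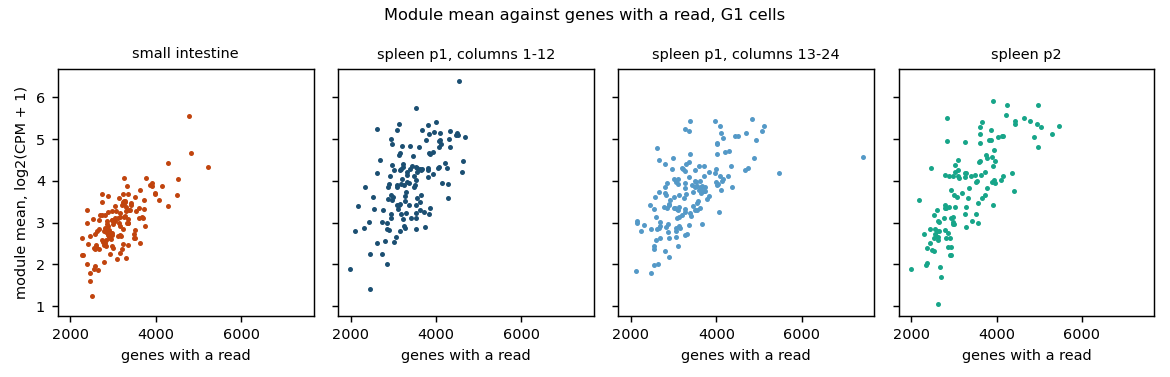
The module of each G1 cell (vertical axis, mean log2(CPM + 1)) against the number of genes with a read (horizontal axis), in a panel for each set. The Spearman correlations are 0.637, 0.55, 0.65 and 0.773 from left to right, and the SI panel sits lower at the same number of genes.

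Of 43 other glycolysis, hypoxia, transport and Myc network genes, 9 were higher and 18 lower in the SI than in all 3 spleen sets, where 25.3% and 44.7% of all genes were, with a median log2 ratio of -0.32. Only 30 of the 43 averaged at least 10 CPM in a tissue, as the genes behind these shares did. P4ha2 among the higher genes, and Pfkfb1 and Pfkfb4 among the lower, averaged less than that. The 3 with the largest ratios were Ndrg1, a stress and hypoxia responsive gene, at 125.4 CPM in the SI and 8.57 CPM in the spleen, Mxd1 at 884.5 and 120.9 CPM, and Mxi1 at 76.6 and 21.2 CPM. Mxd1 and Mxi1 code for partners of Max that oppose Myc, and Mxd1 had log2 ratios of 2.49, 2.78 and 3.58 against the spleen sets, where Myc had -2.12, -1.46 and -1.70. The lowest ratios among listed genes read in at least 25% of cells of the higher tissue were those of Slc29a1, Slc7a1 and Ddit4. Slc29a1, a nucleoside carrier, averaged 45.9 CPM in the SI and 218.8 CPM in the spleen. Slc7a1, a carrier of cationic amino acids, averaged 35.9 and 149.9 CPM, and Ddit4, an mTORC1 inhibitor induced by stress and hypoxia, 16.6 and 41.4 CPM. Some genes read in fewer cells had lower ratios than Slc7a1 or Ddit4. Txnip, which restrains glucose uptake, averaged 456.2 CPM in the SI and 524.6 CPM in the spleen and did not leave the spleen range.

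The 16 genes of the citric acid cycle and the respiratory chain were lower by less. In the SI 13 were below all 3 spleen sets and 1 was above, against 44.7% and 25.3% of all genes, and none was 2-fold lower than each set, where 10.7% of all genes were. Their median log2 ratio of -0.41 lay between those of the members and of all genes. The lowest ratios were -0.95 for Fh1, -0.86 for Idh3a and -0.80 for Atp5b, and the 3 highest were 0.01 for Sdhb, -0.04 for Ndufs1 and -0.12 for Cox4i1.

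Proliferation was taken up by comparing, within each set, cells with and without an Mki67 read among all cells that passed the filters. The module was higher with an Mki67 read by 0.36 in the SI and by 0.15, 0.24 and 0.41 in the spleen sets. The median gene of all those tested was higher by 0.39, 0.23, 0.29 and 0.35 in the same contrasts, so the members moved about as the median gene did. By mean log2(CPM + 1), 9 members were higher with an Mki67 read in all 4 sets, against 38.8% of all genes: Hk2, Tpi1, Gapdh, Pgk1, Pkm, Ldha, Slc16a1, Slc3a2 and Slc38a2. By mean CPM, a count added after seeing the data, 6 were higher (12.4% of all genes), without Hk2, Slc16a1 and Slc3a2, and 3 were lower (10.5% of all genes), Hif1a, Slc1a5 and Slc5a3. Cells with an Mki67 read had reads of more genes, 3819 against 3049 in the SI at the median and 3806 to 4016 against 3020 to 3394 in the spleen sets. Within tertiles of genes with a read the mean difference over the 4 sets was -0.15, against 0.29 without that division. Among G1 cells alone the module differences were 0.17, 0.07, 0.11 and 0.46, and 3 members, Tpi1, Gapdh and Ldha, were higher by mean log2(CPM + 1) in all 4 sets, against 16.1% of all genes. By mean CPM in these cells 5 members were higher (8.23% of all genes) and 1 was lower (6.88%).

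Cells called S or G2M from their cycle genes were compared with G1 cells in the same way. Their module was higher by 0.58 in the SI and by 0.22, 0.43 and 0.25 in the spleen sets, where the median gene was higher by 0.67, 0.44, 0.47 and 0.41. By mean log2(CPM + 1), 15 members were higher in all 4 sets, against 48.4% of all genes. On the same scale 2, Aldoa and Bnip3, were lower in all 4, against 2.81% of all genes. By mean CPM only Tpi1, Gapdh and Ldha were higher in all 4 sets (13.4% of all genes) and 10 members were lower (19.1% of all genes), with Slc2a1 and Hk1 higher on the log scale and lower by mean CPM. Tpi1 was higher by 2.82, 0.55, 1.999 and 1.59 and Slc38a2 by 1.72, 1.76, 1.10 and 1.40 in mean log2(CPM + 1). The differences of Aldoa were -0.39, -1.54, -0.79 and -0.945. Within tertiles of genes with a read the mean module difference was -0.40 in place of 0.37, and in the SI only 1 tertile held 3 or more cells of both kinds. Hif1a is the 1 member among the genes from which the phases were called.

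Il10 and the module were then compared across the G1 cells of each set. Their Spearman correlation was -0.04 in the SI and 0.205, 0.188 and 0.191 in the spleen sets, and with the eGFP reporter transcript it was -0.015, 0.175, 0.147 and 0.187. Cells of a set share plate and tissue. Il10 itself correlated with genes per cell at -0.084, 0.038, 0.116 and 0.153. From the lowest to the highest tertile of cells by Il10 the module went from 3.09 to 2.97 in the SI, and in the spleen sets from 3.68 to 4.04, from 3.58 to 3.95 and from 3.54 to 4.20. Within tertiles of genes per cell the correlations were -0.021, 0.191, 0.168 and 0.09. All are weak, and the difference between SI and spleen was not tested. Il10 was read in 99.3% of SI cells and in 95.5, 92.5 and 77.9% of cells of the spleen sets.

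Of the 30 members with a correlation in every set, 6 were positive with Il10 in all 4 (Eno1, Ldha, Slc16a3, Hif1a, Slc3a2 and Myc), against 9.20% of all genes. Ldha stood at 0.081, 0.175, 0.201 and 0.225, Slc16a3 at 0.178, 0.156, 0.118 and 0.28, and Hif1a at 0.04, 0.199, 0.144 and 0.328. The mean Ldha level went from 1439 to 2173 CPM from the lowest to the highest Il10 tertile of spleen p2, and Hif1a from 680.7 to 1360 CPM. Pdk1 went the other way in that set, from 292.2 to 107.6 CPM with a correlation of -0.313, where the other 3 sets gave -0.084, 0.093 and -0.091. The median correlation over the members was -0.043 in the SI and 0.06, 0.097 and 0.097 in the spleen sets, and over all genes it was -0.01, 0.002, 0.008 and 0.017.

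**Figure D5:**
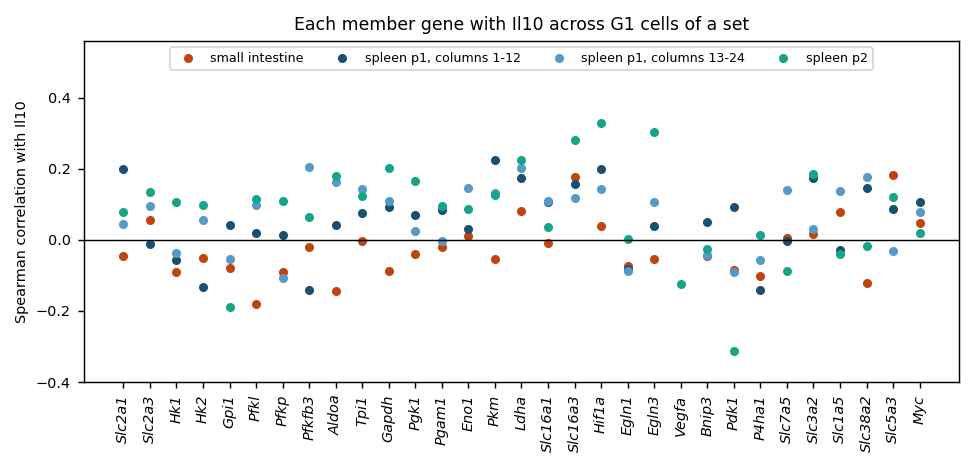
Spearman correlation (vertical axis) of each of the 31 genes with Il10 across the G1 cells of the SI and of each spleen set, 1 dot for each set. Ldha, Slc16a3, Hif1a, Slc3a2, Eno1 and Myc lie above 0 in all 4 sets, and Pdk1 reaches -0.313 in spleen p2.

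The members varied together weakly from cell to cell. For the 14 members with a read in at least 25% of cells in every set, the median Spearman correlation of the 91 pairs was 0.059 in the SI and 0.098, 0.071 and 0.186 in the spleen sets. The 4 pairs with the highest lowest value over the sets all joined enzymes of glycolysis, which make up most of these 14 members. Pairs of genes outside the list were not compared, and the part of genes per cell in these correlations was not tested. Tpi1 and Ldha correlated at 0.292, 0.376, 0.429 and 0.48, Gapdh and Pkm at 0.327, 0.292, 0.353 and 0.558, Tpi1 and Pgk1 at 0.271, 0.266, 0.286 and 0.273, and Pkm and Ldha at 0.298, 0.358, 0.243 and 0.476. Against the mean of the other 30 members, Ldha correlated at 0.409, 0.313, 0.496 and 0.632 and Hif1a at 0.015, 0.155, 0.179 and 0.214.

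Outside the list, the 10 genes whose correlation with the module was highest in the set where it was lowest were Eif5a, Uck2, Hsp90ab1, Alyref, Hnrnpab, Zfp593, Snrpd1, Nhp2, Ndufb6 and Mcm2. Eif5a, a translation factor, correlated at 0.407, 0.438, 0.522 and 0.548, and Hsp90ab1, a chaperone, at 0.373, 0.467, 0.46 and 0.639, where the median gene stood at 0.074, 0.065, 0.092 and 0.108. The mean of Eif5a was 292.2 CPM in the SI and 647.1, 552.2 and 651.3 CPM in the spleen sets, and Uck2, a kinase of uridine and cytidine, had 10.96 CPM against 77.2, 38.6 and 50.7 CPM. These correlations share the number of genes per cell with the module.

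Foxp3, which defines regulatory T cells, had a read in 9 SI cells and in 85, 26 and 8 cells of the spleen sets. The module of cells with minus cells without a Foxp3 read was -0.18 in the SI and 0.26, 0.05 and 0.85 in the spleen sets, and for the median gene the differences were -0.15, 0.16, -0.02 and 0.43. By mean log2(CPM + 1), 7 members were higher with a Foxp3 read in all 4 sets, against 10.1% of all genes. These were Slc2a3, Tpi1, Pkm, Ldha, Egln1, Pdk1 and Slc3a2, and Pfkfb3 was lower in all 4, against 5.32% of all genes. By mean CPM, 4 members were higher in all 4 sets (4.97% of all genes), Pfkl, Pkm, Ldha and Egln1, and 2 were lower (10% of all genes), Pfkp and Pfkfb3, while Slc2a3 was lower in the 3 spleen sets. The SI and spleen p2 values rest on 9 and 8 cells.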

How the data were processed

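Single cells were prepared by the SMART-seq2 protocol per the labels. The deposited values are raw counts of reads per gene and cell, in a table for each tissue. The study's methods name STAR in 2 passes, uniquely aligned reads and the build Mm8, whereas the submitters' processing notes give STAR and mm10; the counting tool and gene annotation are not given in the sources used here. Reads carry no molecular identifiers. The intervals are exact binomial limits on the share of cells with a read. They treat cells as independent draws and leave out differences between animals and between the spleen sets.

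From the counts, 4 rows of repeated gene names were removed, cells more than 3 median absolute deviations below their tissue's median log reads or genes were left out, and phases were called with cyclone (scran 1.30.0, R 4.3.3; 632 of 667 marker genes matched). The study's filter on mitochondrial genes and its spike-in correction were not applied here. Counts were divided by each cell's total to CPM; the module is the mean log2(CPM + 1) over 31 genes, and ratios are log2 of mean CPM with a pseudocount of 1. Each of the 764 cells had 6655 to 622348 reads. TMM (edgeR 4.0.16) and DESeq2 1.42.0 size factors of the summed reads of each set served as other scalings, and no p-value was taken from them. Python 3.11.15, numpy 2.4.6, pandas 2.3.3 and scipy 1.17.1 were used. The ratio code was tested on simulated data. Exon lengths came from GENCODE M21, built on GRCm38.

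The members, the lists of related genes and the markers were chosen with earlier results of these data known. Named are all members, of each other list the 3 genes with the largest ratio each way among those with a read in at least 25% of cells of the higher tissue, the 10 non-members most like the module, and the promoters of the 3 members with the largest ratio each way past 2-fold; Txnip and the promoters of Slc16a1 and P4ha1 were added after their values were seen. No member passed 2-fold upward. Because groups have 1 sample each, comparisons are of values, without tests. The result of 1 marker list is not reported here.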

Additional observations from a re-analysis of the deposited data

How the results depend on the processing

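Under 9 other settings the same 22 members were lower, and Hk2, Slc3a2 and Slc38a2 higher, in the SI than in all 3 spleen sets. The settings were cycling cells kept, no cell removed, thinning to 200000 reads, TMM and DESeq2 size factors. The others were pseudocounts of 0.1 and 10 CPM, and cells without a Foxp3 or without a Cd8a or Cd8b1 read. These calls compare mean CPM without a pseudocount, so the pseudocounts could not change them and bear only on the 2-fold calls. The share of all genes was counted again only with TMM and DESeq2 size factors. Throughout, 7 members remained at least 2-fold lower than each set: Pfkl, Tpi1, Slc16a1, Pdk1, P4ha1, Slc7a5 and Myc. The number higher was 6 with TMM and 7 with DESeq2 size factors, against 3; the number 2-fold lower was 7 with a pseudocount of 10 CPM, against 11; and with no cell removed 2 genes, Hk2 and Vegfa, were 2-fold higher, against 0. The module difference of -0.81 became -0.50 with a pseudocount of 10 CPM, -1.82 with the median over members and -0.62 within tertiles of genes per cell. Against spleen p2 alone it was -0.78, and it became -0.48, -1.97 and -0.63 in the same settings and -0.60 over the 22 members of at least 10 CPM in each tissue. Leaving out p1 columns 1-12, p1 columns 13-24 or p2 gave -0.75, -0.86 and -0.82. The Mki67 difference of 0.29 became 0.14 with a pseudocount of 10 CPM, 0.96 with the median over members and -0.15 within tertiles of genes per cell, a change of sign. The S or G2M difference of 0.37 became 0.16, 1.23 and -0.40 in the same settings, again changing sign in the last. The mean Il10 correlation of the 4 sets, 0.136, stayed between 0.107 and 0.14. By set it moved more, in the SI from -0.04 to -0.151 with cycling cells kept and -0.189 by Pearson, and in spleen p2 from 0.191 to 0.311 with cycling cells kept and 0.09 within tertiles. Among the single-gene ratios under other settings, 66 moved by more than the SD of the 3 spleen sets, and the ratio changed sign for 3 members, Hk1, Hif1a and Vegfa. With no cell removed and with tertiles the cause was not tested. Tertiles of genes per cell and the CD8 setting were chosen after seeing the data. No paired analysis was possible because each tissue is 1 sample and no test was made. Single-cell depth of about 344034 reads at the median leaves genes under 10 CPM resting on a few reads in few cells.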
